A study of Mus musculus with 6 samples.

Results

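Adding adenine to the medium of undifferentiated 3T3-L1 fibroblasts went with small differences in messenger RNA, and this report describes them gene by gene and group by group. The comparison is the array of fibroblasts given 0.5 mM adenine for 3 days minus the array of fibroblasts given nothing, 2 of the 6 arrays of the series. 3T3-L1 is an established mouse line of fibroblast-like cells that can be turned into fat cells, and all cells here were of that line. The fibroblasts were grown in Dulbecco's modified Eagle's medium with 10% calf serum. Another fibroblast array came from cells given 0.5 mM AICAR, a nucleoside that cells phosphorylate to an analogue of AMP, for the same 3 days. The other 3 arrays came from cells put through adipocyte differentiation with no compound, with 0.5 mM adenine or with 0.5 mM AICAR. There the compound was in the induction medium and absent from the insulin medium that followed. Each condition had 1 array, so no difference has an error, an interval or a test, and the labels do not say whether the cultures were started separately.

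Adenine is a free purine base. Cells take it up and the salvage enzyme adenine phosphoribosyltransferase (Aprt) joins it to a ribose phosphate to make AMP, which feeds the other adenine nucleotides and can be deaminated towards guanine nucleotides. Purine nucleotides in turn restrain their own synthesis, and outside the cell purines are ligands of surface receptors. Fibroblasts themselves build, crosslink and degrade the extracellular matrix and secrete growth factors and chemokines. The groups are taken in that order, followed by interferon and sterol genes, growth and energy metabolism, and the purine pathways.

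Levels are log2 hybridisation signals as deposited, so a difference of 1 is a 2-fold difference and 0.58 is 1.5-fold. Array medians over all 35556 probe sets lay between 5.41 and 5.49. Of 19938 genes with a single symbol, 9969 had a mean over the 6 arrays at or above the median of such means (5.87) and are the genes compared. Hs3st4 (difference 0.06) and Spdef (0.04) lay just above that floor, and Gm10364 (-0.33) and Gbx2 (-0.22) just below it. The 8 fibroblast markers checked stood between 9.06 (Thy1) and 12.65 (Fn1) on these arrays. Of them Thy1 differed by -0.40, Vim by -0.06, Col3a1 by 0.23 and Pdgfra by 0.41. Their summed linear signal was 29753 on the control array and 32024 with adenine. The 7 fat cell markers summed to 302 and 262, with Adipoq at 4.42 and 4.45 and Cd36 at 3.98 and 4.0. Fabp4 was above the floor on both arrays and differed by -0.55. That was the lowest value of the 6 fat cell markers compared, of which 3 were above 0 and 3 below. The 9 leukocyte markers measured summed to 523 and 552. Of these Ptprc, the pan-leukocyte marker, stood at 4.24 and 3.86, and Lyz2, the highest, at 7.99 and 8.12. Endothelial markers summed to 168 and 172, and epithelial and mesothelial markers to 288 and 271, with 0 of 6 and 0 of 8 genes above the floor.

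The adenine and control arrays were close. The differences of the 9969 genes had a median of -0.01, quartiles of -0.11 and 0.10 and a robust SD of 0.156. That SD was 0.407 for AICAR in fibroblasts and 0.335 for adenine during adipocyte induction. Of the fibroblast differences 85.6% lay within 0.25 of 0. Across 10 equal bins of expression level the robust SD lay between 0.143 and 0.164. Medians by chromosome ran from -0.05 on chromosome 7 to 0.04 on chromosome 13. At least 2-fold higher with adenine were 8 genes, which is 0.0802% of those compared, and at least 2-fold lower were 5, or 0.0502%. At 1.5-fold the counts were 54 higher (0.542%) and 32 lower (0.321%). Above 0 were 47.8% of genes and below 0 were 52.1%.

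**Figure D1:**
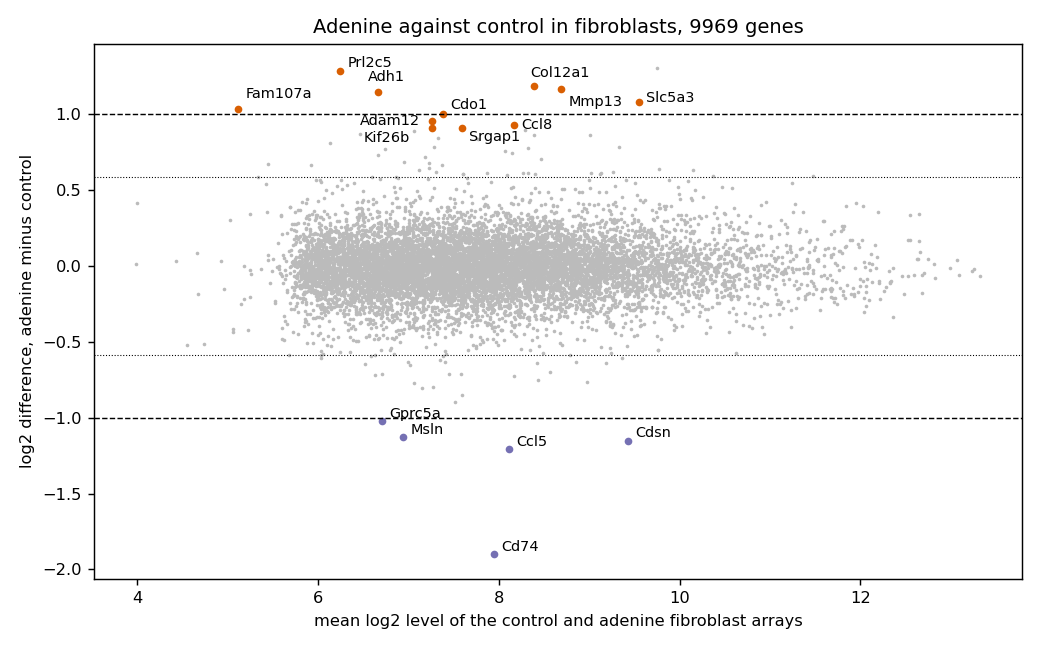
Each point is 1 of the 9969 genes, with its mean log2 level on the control and adenine fibroblast arrays on the x axis and the log2 difference, adenine minus control, on the y axis. Dashed lines mark 2-fold and dotted lines 1.5-fold, and named genes at 0.9 or more from 0 are coloured (orange higher, purple lower). Cd74 stands furthest from 0 at -1.90, and on the higher side the named genes lie between 0.91 and 1.29.

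Different probe sets of a gene gave a check on measurement within these 2 arrays, though not on the cultures. Among 582 genes with a second probe set above the floor, the difference between the 2 values of a gene had a robust SD of 0.0794. In 17 of them the brighter set differed by at least 0.4 between the arrays, and the second set had the same sign in 17 of 17. Kif26b, a kinesin family gene, was higher by 0.91 on its brighter probe set and by 0.64 on the other.

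The most compact pattern was in the matrix metalloproteinase genes. These enzymes are secreted as inactive precursors and cut collagen and other matrix proteins, and 10 of their genes lie side by side on chromosome 9 between 7272514 and 7699585 of the mouse build GRCm38.p6, a span of 427 kb. The cluster was picked out after its values were seen. Mmp13, the main rodent interstitial collagenase, stood at 8.11 on the control array, 9.28 with adenine and 8.30 with AICAR in fibroblasts, and at 5.75, 5.25 and 6.01 in adipocytes. Adenine fibroblasts were thus the highest of the 6 arrays and lay 1.16 above their control (2.24-fold). Mmp3 (stromelysin 1) stood at 5.84 in control fibroblasts, 7.40 with adenine and 5.12 with AICAR, and at 4.38, 3.91 and 4.58 in the control, adenine and AICAR adipocytes. Its difference of 1.56 (2.95-fold) starts from a level at the floor, and its 6-array mean did not pass the filter. Mmp8, the neutrophil collagenase, stood at 4.91, 6.27 and 6.29 on the control, adenine and AICAR fibroblast arrays and at 3.48, 3.42 and 3.19 in adipocytes. Adenine and AICAR were at nearly the same level here, and the difference with adenine was 1.36. Mmp27 stood at 6.62, 7.51 and 6.53 in fibroblasts and at 5.21, 4.81 and 5.4 in adipocytes, a difference of 0.89. The remaining 6 genes of the cluster (Mmp12, Mmp1b, Mmp1a, Mmp10, Mmp20 and Mmp7) had differences from -0.21 (Mmp10) to 0.11 (Mmp7), all at levels under the floor on these arrays.

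So 4 of 10 genes of the cluster were at least 1.5-fold higher and 0 were lower, beside 0.542% and 0.321% of the genes compared. Only Mmp13 and Mmp27 are among the genes compared. Over all 19938 genes, with no filter on dim genes, 103 were at least 1.5-fold higher and 80 lower. The 12 Mmp genes measured elsewhere in the genome ran from -0.36 (Mmp19) to 0.35 (Mmp2), and 0 of them were past 1.5-fold. Mmp2, the gelatinase of mesenchymal cells, was bright at 12.47 and 12.82. In adipocytes Mmp13, Mmp3 and Mmp27 were lower with adenine, by -0.50, -0.47 and -0.40, at levels near or under the floor.

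**Figure D2:**
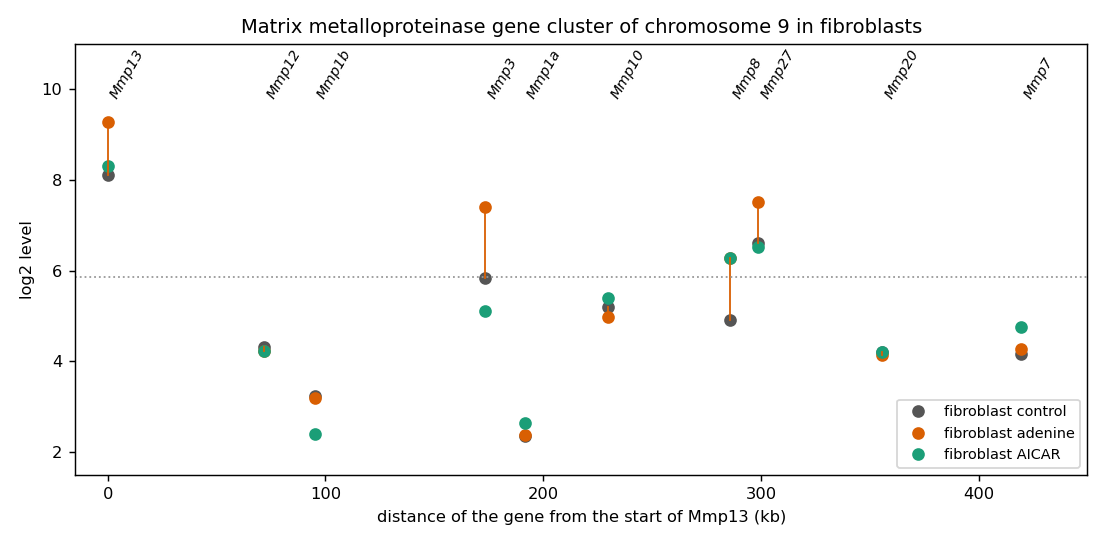
The x axis gives the distance of each gene's start from the start of Mmp13 in kb and the y axis its log2 level on the 3 fibroblast arrays (grey control, orange adenine, green AICAR). Orange bars join control and adenine, and the dotted line is the expression floor of 5.87. Mmp13, Mmp3, Mmp8 and Mmp27 stand apart from their control, while their 6 neighbours do not reach 1.5-fold.

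The 250 bases before the start of each of the 4 higher genes, and of Mmp10 as a neighbour at -0.21, show how their promoters differ in the AP-1 motif, a binding sequence of Fos and Jun proteins that is long known from collagenase promoters. Sequences are from RefSeq, build GRCm38.p6, plus strand, 5′ to 3′. Capitals mark TGANTCA, which reads the same on both strands. The positions are Mmp13 at chr9:7272264-7272513, Mmp3 at chr9:7445572-7445821, Mmp8 at chr9:7558179-7558428, Mmp27 at chr9:7571146-7571395 and Mmp10 at chr9:7502092-7502341.
Mmp13: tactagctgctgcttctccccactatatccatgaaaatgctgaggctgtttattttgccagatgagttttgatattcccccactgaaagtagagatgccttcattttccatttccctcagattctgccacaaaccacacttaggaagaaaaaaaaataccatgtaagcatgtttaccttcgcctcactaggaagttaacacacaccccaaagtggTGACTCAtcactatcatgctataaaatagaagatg
Mmp3: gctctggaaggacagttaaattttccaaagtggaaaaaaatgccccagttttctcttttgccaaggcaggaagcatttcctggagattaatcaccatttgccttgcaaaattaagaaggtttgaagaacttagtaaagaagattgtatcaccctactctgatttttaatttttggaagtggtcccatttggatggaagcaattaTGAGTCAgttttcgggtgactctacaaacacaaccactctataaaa
Mmp8: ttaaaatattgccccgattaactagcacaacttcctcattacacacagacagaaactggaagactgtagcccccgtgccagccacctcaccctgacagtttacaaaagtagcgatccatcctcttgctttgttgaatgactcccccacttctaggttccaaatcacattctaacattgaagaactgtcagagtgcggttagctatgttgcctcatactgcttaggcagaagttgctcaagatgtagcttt
Mmp27: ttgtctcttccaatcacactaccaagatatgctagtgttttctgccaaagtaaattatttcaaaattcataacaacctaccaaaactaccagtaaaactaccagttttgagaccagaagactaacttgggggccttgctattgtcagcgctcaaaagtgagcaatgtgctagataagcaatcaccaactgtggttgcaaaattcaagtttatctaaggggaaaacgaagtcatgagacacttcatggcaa
Mmp10: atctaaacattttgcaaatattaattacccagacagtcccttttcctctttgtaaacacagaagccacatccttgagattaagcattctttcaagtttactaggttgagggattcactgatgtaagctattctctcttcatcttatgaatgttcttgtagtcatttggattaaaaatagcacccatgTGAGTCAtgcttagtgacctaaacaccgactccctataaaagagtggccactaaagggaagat
The motif begins 35 bases before the start of Mmp13, 46 before Mmp3 and 63 before Mmp10, and these letters are not in the windows of Mmp8 and Mmp27. In the whole cluster 8 of 10 genes (80%) hold the motif, beside 6.75% of all 32851 promoters. Here and for the motifs below, a gene counts if any of its promoters has a match. The share over all promoters counts each promoter, so the measures differ. Every gene of the cluster that did not reach 1.5-fold holds it (Mmp12, Mmp1b, Mmp1a, Mmp20, Mmp7 and, at a difference of -0.21, Mmp10). Of the 4 higher genes Mmp13 and Mmp3 hold it, and Mmp8 and Mmp27 lack it at 1.36 and 0.89.

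Structural matrix genes were mostly a little higher with adenine. Col12a1, a collagen that coats the fibrils of type I collagen, stood at 7.80 in control fibroblasts, 8.98 with adenine and 7.85 with AICAR, and at 8.08, 6.44 and 7.93 in adipocytes. It was the highest of the 6 arrays with adenine in fibroblasts and the lowest with adenine in adipocytes, where the difference was -1.64 against 1.19 (2.28-fold higher) here. Of the 33 collagen genes compared 23 were above 0, beside 47.8% of all genes. Their median was 0.09, or 0.23 with the filter at the 75th percentile of gene means. Col8a1, a short-chain collagen, was higher by 0.74, and Col20a1 (-0.44) and Col9a1 (-0.32) had the lowest values. Enzymes that modify and fold collagen had 14 of 19 members above 0 (median 0.09), with the prolyl hydroxylase subunit P4ha3 at 0.41, the crosslinking lysyl oxidase Lox at 0.36, and Loxl4 (-0.24) and the collagen chaperone Serpinh1 (-0.22) at the other end. Small proteoglycans and matricellular proteins had 22 of 27 members above 0 and a median of 0.24. Thrombospondin 2 (Thbs2) was highest at 0.60, from 11.17 to 11.77, followed by the microfibril protein Mfap4 at 0.51, and fibulin 1 (Fbln1, -0.48) and Tgfbi (-0.40) were lowest.

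Among matrix proteases and their inhibitors 22 of 31 genes were above 0 (median 0.11, or 0.17 with the filter at the 75th percentile of gene means). Adam12, a membrane-anchored disintegrin and metalloproteinase, stood at 6.79 on the control array, 7.74 with adenine and 6.43 with AICAR in fibroblasts and at 9.36, 9.41 and 8.52 in adipocytes. It was thus higher by 0.95 (1.94-fold) in fibroblasts and by 0.05 in adipocytes. At the other end stood Mmp19 (-0.36) and the inhibitor Timp1 (-0.31). Contractile and cytoskeletal target genes of SRF and YAP were split, with 13 of 23 above 0 (median 0.01), from the tropomyosin Tpm2 and the focal adhesion protein Zyx (both -0.44) to Lats2 (0.19) and Mrtfb (0.31).

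Ligands, receptors, antagonists and signal carriers of 2 growth factor families were also more often higher. Of the TGF-beta, BMP and activin genes 21 of 28 were above 0 (median 0.13, or 0.04 with the filter at the 75th percentile of gene means). At least 1.5-fold higher were 3, beside 0.542% of all genes, and these were Ltbp1, which holds latent TGF-beta in the matrix (6.91 to 7.76, 0.85), the BMP antagonist Grem1 (6.89 to 7.57, 0.68) and follistatin, which binds activin (Fst, 8.72 to 9.33, 0.62). The activin subunit Inhba (-0.24) and Ltbp4 (-0.17) were lowest. On the AICAR array Ltbp1 and Grem1 stood at 7.79 and 7.56, close to their adenine levels. Of the Wnt pathway genes 19 of 23 were above 0 (median 0.12, or 0.18 with that stricter filter), from the ligands Wnt9a (-0.12) and Wnt6 (-0.09) to the secreted antagonist Sfrp2 (0.41) and the receptor Fzd1 (0.53).

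Prl2c5, a prolactin family gene whose relatives encode placental hormones, stood at 5.60 on the control array, 6.89 with adenine and 7.60 with AICAR in fibroblasts and at 7.59, 8.51 and 7.85 in adipocytes. The control fibroblasts were lowest of the 6 arrays, and adenine was higher than its own control in both cell states, by 1.29 and 0.92. The fibroblast difference starts from a control level under the floor, and the gene passed the filter through the other arrays, so its size depends on the background correction. The family has near-identical copies whose RNA a probe set may also bind, so the gene identity is uncertain. Of the other members Prl2c1 was dim, at 2.86 and 3.16, and the remaining ones were not analysed here.

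Solute transport and small-molecule metabolism supplied several of the other genes near 2-fold. Slc5a3, the sodium-dependent importer of the osmolyte myo-inositol, stood at 9.01 in control fibroblasts, 10.09 with adenine and 8.32 with AICAR, and at 9.91, 9.52 and 9.74 in adipocytes. The adenine fibroblasts were highest and the difference was 1.08 (2.12-fold). Atp1b1, the beta subunit of the sodium pump, was higher by 0.90 (7.84 to 8.74, and 7.61 with AICAR). Of 9 osmolyte genes compared 7 were above 0 (median 0.18, or 0.03 with no filter on dim genes), with the water channel Aqp1 at 0.49, while Impa1 (-0.08), which completes inositol synthesis, and the chaperone Hspa4l (-0.02) had the lowest values. Nfat5, the transcription factor of the osmotic response, stood at 10.13 and 10.16.

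Cdo1, cysteine dioxygenase, which starts the path from cysteine to taurine, stood at 6.88, 7.88 and 7.30 on the control, adenine and AICAR fibroblast arrays and at 9.17, 9.46 and 8.5 in adipocytes. Adenine was the higher of the pair in both states, by 1.00 and 0.29. The taurine importer Slc6a6 was at 0.44, but of 15 sulfur amino acid and taurine genes only 3 were above 0 (median -0.09), and Suox (-0.38) and Ethe1 (-0.34), which oxidise sulfur compounds, were lowest. Adh1, an alcohol dehydrogenase that also oxidises retinol, stood at 6.10 in control fibroblasts, 7.24 with adenine and 5.49 with AICAR and was higher by 1.15 (2.21-fold). In adipocytes its difference was -0.30. Other retinoid and alcohol dehydrogenase genes were evenly split, 9 above and 9 below 0 with Adh1 counted, and ran from the aldehyde dehydrogenase Aldh2 (-0.24) and the retinoic acid receptor Rara (-0.21) to the retinal reductase Dhrs3 (0.42).

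Fam107a, an actin-associated gene, stood at 4.60 in control fibroblasts, 5.64 with adenine and 5.09 with AICAR. It passed the filter through the adipocyte arrays, where it stood at 10.07, 9.54 and 8.95, so its difference of 1.03 was measured under the floor. Mest, an imprinted gene of mesenchymal growth, stood at 7.96, 8.83 and 4.58 on the control, adenine and AICAR fibroblast arrays and at 8.04, 7.16 and 6.94 in adipocytes. Adenine fibroblasts were highest and AICAR fibroblasts lowest of the 6, with differences of 0.87 and -3.38 from the array they share as control. Srgap1 was higher by 0.91 (7.14 to 8.05), and Dpep1, a membrane dipeptidase, by 0.87 (8.57 to 9.44). Preadipocyte and stromal progenitor markers other than Mest had no common direction, from Thy1 and Osr1 (-0.25) to Clec3b (0.57). With Mest counted 12 of 19 were above 0. The median was then 0.08, or 0.00 with the filter at the 75th percentile of gene means. The predicted gene Gm5886 (9.10 to 10.40), named after its values were seen, completes the 8 genes at 2-fold.

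**Figure D3:**
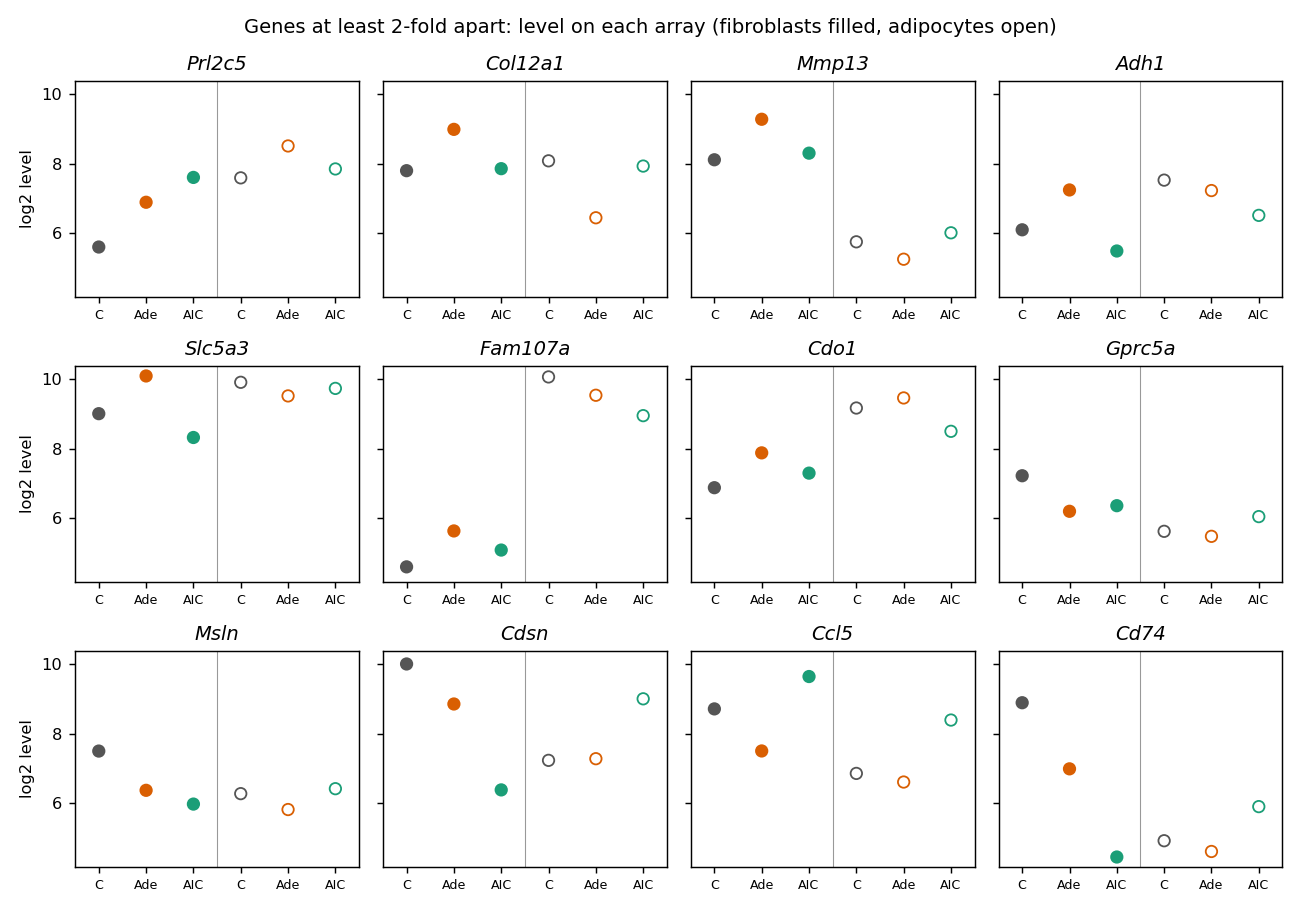
Panels give the log2 level of each of 12 named genes at least 2-fold apart between the control and adenine fibroblast arrays, on all 6 arrays (C control, Ade adenine, AIC AICAR; filled circles fibroblasts, open circles adipocytes). Each circle is 1 array, so no error is drawn. Col12a1 is highest with adenine in fibroblasts (8.98) and lowest with adenine in adipocytes (6.44), and Cd74 is highest in control fibroblasts (8.90).

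Of the lower genes Cd74 stood out. It encodes the invariant chain that escorts MHC class II molecules to the endosome and also serves as a receptor for the cytokine MIF. Its level was 8.90 in control fibroblasts, 6.99 with adenine and 4.46 with AICAR, and 4.93, 4.62 and 5.91 in adipocytes. Control fibroblasts were the highest of the 6 arrays and the adenine difference was -1.90 (3.74-fold lower). The control and adenine fibroblast arrays were both above the floor of 5.87. Cd74 passed the filter through the control fibroblast array, with a 6-array mean of 5.97. The class II molecules it escorts were under the floor on these arrays. H2-Ab1 stood at 4.43 without and 4.09 with adenine, H2-Aa at 3.51 and 3.39, H2-Eb1 at 5.48 and 5.41, and H2-Eb2 at 4.37 and 4.13. Accessory genes were as dim: H2-DMa at 5.33 and 5.21, H2-Oa at 4.61 and 4.52, H2-Ob at 4.79 and 4.83 and the protease Ctss at 3.92 and 4.13. The class II transactivator Ciita stood at 4.88 and 4.78, and the subunits of the RFX factor that binds class II promoters, Rfxank, Rfx5 and Rfxap, differed by -0.12, -0.11 and 0.01. Of 13 class II genes measured only Cd74 was past 1.5-fold. Class I and antigen processing genes were divided, 8 above and 9 below 0 (median -0.01), from the immunoproteasome genes Psmb8 (-0.48) and Psme1 (-0.42) to the peptidase Erap1 (0.39) and Tapbpl (0.25).

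Corneodesmosin (Cdsn), an adhesion protein of skin, stood at 10.01 in control fibroblasts, 8.86 with adenine and 6.39 with AICAR, and at 7.24, 7.29 and 9.01 in adipocytes. The difference with adenine was -1.15 (2.22-fold lower). Mesothelin (Msln), a surface glycoprotein best known from mesothelial cells, stood at 7.51, 6.38 and 5.98 in fibroblasts and at 6.28, 5.82 and 6.42 in adipocytes, a difference of -1.13. Gprc5a, an orphan receptor induced by retinoic acid, stood at 7.22, 6.20 and 6.36 in fibroblasts and at 5.63, 5.48 and 6.05 in adipocytes, a difference of -1.02. Cd74, Cdsn, Msln and Gprc5a shared an order in which the control fibroblasts were highest of the 3 fibroblast arrays. These genes were chosen for a control level above the adenine level, so the order is partly fixed by that choice. Of all 32 genes at least 1.5-fold lower, 30 were also below the control with AICAR, beside 5232 of all 9969 genes. Both differences subtract the same control array, so a high control value lowers both. Below 2-fold came the carboxylesterase Ces2g (-0.89), the Golgi protein Paqr3 (-0.85), the metalloreductase family gene Steap1 and the carbonyl reductase Cbr2 (both -0.71). Ptgs2, the inducible prostaglandin synthase, was at -0.71 and the branched-chain aminotransferase Bcat1 at -0.70. The inflammatory NF-kB list, which holds Ptgs2, had 11 of 18 members below 0 (median -0.04), from Nfkbiz (-0.23) to Il1rn (0.21) and Icam1 (0.37).

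Chemokines, which direct leukocytes, differed in both directions. Ccl5 stood at 8.72 in control fibroblasts, 7.51 with adenine and 9.65 with AICAR, and at 6.86, 6.62 and 8.40 in adipocytes, so the adenine array was the lowest of the fibroblast arrays (-1.21). Cxcl10 stood at 7.67, 6.88 and 7.10 in fibroblasts, a difference of -0.79. Ccl8 went the other way, at 7.70, 8.63 and 8.85 in fibroblasts and at 3.83, 3.52 and 4.53 in adipocytes, a difference of 0.93. Cxcl5, a neutrophil attractant, was higher by 0.61 and Ccl11, the eosinophil attractant eotaxin, by 0.59. In all 9 of 13 chemokines compared were above 0 with a median of 0.23, 3 of them past 1.5-fold (0.542% of all genes), and 2 were lower past 1.5-fold (0.321% of all genes). The median was -0.00 when all 33 chemokine genes measured were counted, since most of the rest were dim.

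Antiviral genes, whose induction by interferon protects cells from viruses, leaned lower. Of 33 compared 27 were below 0, beside 52.1% of all genes, with a median of -0.11. The oligoadenylate synthetase Oas1a stood at 7.0 without and 6.27 with adenine (-0.72) and Rsad2, which makes a chain-terminating nucleotide, at 7.71 and 7.12 (-0.58). The highest members were Ifi27 (0.19) and Parp14 (0.15). Interferon-inducible GTPases had 6 of 8 below 0 (median -0.12, or -0.07 with no filter on dim genes), from Gbp3 (-0.31) and Gbp4 (-0.30) to Gbp7 (0.04) and Irgm1 (0.07). Genes that sense viruses or carry interferon signals were evenly split (12 of 24 above 0), though the negative regulator Usp18 (-0.55) and the transcription factor Irf7 (-0.52) were lower, and Tlr3 (0.20) and Dhx58 (0.18) were highest. So only 1 antiviral gene, Oas1a, was past 1.5-fold, beside 0.321% of all genes.

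The promoters of Oas1a and Cxcl10 are shown because these interferon-inducible genes were past 1.5-fold and hold the letters of the interferon-stimulated response element, to which interferon-activated factors bind. Capitals mark GAAANNGAA on either strand, in RefSeq build GRCm38.p6, both minus strand genes, at chr5:120907526-120907775 for Oas1a and chr5:92348890-92349139 for Cxcl10.
Oas1a: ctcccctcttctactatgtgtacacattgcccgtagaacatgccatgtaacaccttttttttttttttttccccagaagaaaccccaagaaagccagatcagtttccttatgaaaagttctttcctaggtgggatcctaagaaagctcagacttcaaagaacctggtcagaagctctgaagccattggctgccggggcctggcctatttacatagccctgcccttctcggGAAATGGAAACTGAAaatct
Cxcl10: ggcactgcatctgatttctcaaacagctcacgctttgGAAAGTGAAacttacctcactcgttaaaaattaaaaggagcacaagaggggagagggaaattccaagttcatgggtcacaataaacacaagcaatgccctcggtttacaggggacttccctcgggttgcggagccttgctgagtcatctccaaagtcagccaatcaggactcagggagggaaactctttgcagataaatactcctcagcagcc
In Oas1a 2 matches overlap each other, at -20 and -14 from the start, and in Cxcl10 the match begins 213 bases before it. The motif is held by 9 of the 25 antiviral genes that have a promoter there (36%), and by 1 of 8 chemokines (12.5%), beside 7.13% of all promoters.

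Every gene of cholesterol synthesis compared was a little higher with adenine, 19 of 19 with a median of 0.31 and none past 1.5-fold. The pathway joins acetyl-CoA units through mevalonate and squalene into sterol. Along its order, the early enzyme Hmgcs1 stood at 8.97 on the control array and 9.35 with adenine, a difference of 0.37. The isomerase Idi1 was at 0.45, squalene epoxidase (Sqle) at 0.41 and lanosterol synthase (Lss) at 0.42. In the late steps the C4-methyl oxidase Msmo1 (9.92 to 10.42) was at 0.50 and the sterol reductase Tm7sf2 (6.58 to 7.10) at 0.52. The lowest values were those of Ggps1 (0.08), which serves protein prenylation and not sterols, and of Lbr (0.10), a nuclear envelope protein with sterol reductase activity. Hmgcs1, Idi1, Sqle and Lss were chosen after their values were seen. Of 16 genes of sterol sensing, uptake and efflux 14 were above 0 (median 0.15). Insig1, which retains the sterol-sensing complex in the endoplasmic reticulum, was at 0.57 and the lysosomal lipase Lipa at 0.40, while the oxysterol receptor Nr1h3 (-0.45) and the HDL receptor Scarb1 (-0.18) were the 2 below 0. Fatty acid synthesis and desaturation did not share the direction of the sterol genes, with 10 of 18 above 0 and a median of 0.02, from Thrsp (-0.52) and Fads3 (-0.30) to Scd1 (0.26) and Fasn (0.39). Thrsp was under the floor on both fibroblast arrays (5.0 and 4.48) and passed the filter through the adipocyte arrays.

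Of the 19 synthesis genes compared, 16 had a promoter sequence here. Among these only Hmgcs1 holds the letters of the classic sterol regulatory element, TCACNCCAC on either strand, and it is shown for that. The window is chr13:119690101-119690350, plus strand, RefSeq build GRCm38.p6, with the element in capitals, 137 bases before the start.
Hmgcs1: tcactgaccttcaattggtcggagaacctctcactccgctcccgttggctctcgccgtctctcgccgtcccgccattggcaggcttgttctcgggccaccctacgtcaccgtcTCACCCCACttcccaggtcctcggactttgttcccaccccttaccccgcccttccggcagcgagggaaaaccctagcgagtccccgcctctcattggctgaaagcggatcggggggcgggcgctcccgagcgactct
These letters were in the promoters of 1 of 16 synthesis genes (6.25%) and 0 of 13 of the other sterol genes, beside 1.05% of all promoters.

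Growth-related groups leaned lower by small amounts. Of 56 cytosolic ribosomal protein genes 53 were below 0 (median -0.19, or -0.12 after quantile normalization or removal of a level-dependent curve), from Rpl36 (11.01 to 10.60, -0.41) and Rps14 (-0.40) to Rpl30 and Rps27l (both 0.09). Ribosome biogenesis had 39 of 47 below 0 (median -0.11), with Myc, which drives many of these genes, at -0.49 and Utp4 at -0.39 against Nop10 at 0.14 and Fbl at 0.12. Replication histones had 15 of 16 below 0 (median -0.25). H2bc3 (-0.77) and the linker histone H1f1 (-0.62) were past 1.5-fold, and H2bc9 (-0.05) and H2bc8 (0.02) were highest. Histone genes resemble each other closely, and arrays may not separate them. Cell cycle genes had 43 of 57 below 0 with a median of only -0.08, from the licensing factor Cdt1 (-0.42) and Ube2c (-0.31) to E2f1 (0.27) and the ribonucleotide reductase subunit Rrm1 (0.28). Immediate early and MAPK feedback genes had 23 of 26 below 0 (median -0.24), with Ier2 at -0.57 and, at the top, Klf6 at 0.11 and Pim1 at 0.07. p53 targets were evenly split (10 of 19 above 0, median 0.01), with Plk2 at -0.28, Ddit4 at -0.21, Zmat3 at 0.29 and Trp53inp1 at 0.61.

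Stress and energy genes gave a similar picture. Of 37 ATF4 targets and amino acid transporters 33 were below 0 (median -0.18). Slc7a11, which imports cystine, was at -0.66 and Atf3 at -0.58, with Nupr1 (0.07) and Slc38a2 (0.20) highest. NRF2 antioxidant targets had 24 of 31 below 0 (median -0.10), among them Cbr3 (-0.48), with Mgst1 (0.06) and Nqo1 (0.29) on the other side. Endoplasmic reticulum chaperones and unfolded protein genes ran the other way, 19 of 27 above 0 (median 0.08), from Syvn1 (-0.21) and Sec61b (-0.19) to Pdia4 (0.26) and Sel1l (0.28). Glycolysis and hypoxia genes had 23 of 32 below 0 (median -0.18), with Ero1a (-0.45) and the glycolytic kinase Pgk1 (-0.43) lowest, Pfkfb3 at 0.28 under the floor, and Ankrd37, a HIF target, higher by 0.69. The respiratory chain had 53 of 73 below 0 with a median of -0.06, from Cox4i1 (-0.40) and Atp5d (-0.34) to Ndufa1 (0.26) and cytochrome c (Cycs, 0.29). Fatty acid oxidation had 15 of 23 below 0 (median -0.12), from Cpt1a (-0.37) and Cpt2 (-0.35) to Acadm (0.21) and Slc25a20 (0.27). Clock genes had a median of -0.03 with Dbp (-0.49) and Nr1d1 (-0.47) lowest and Bhlhe40 (0.09) and Cry1 (0.16) highest, and glucocorticoid-responsive genes one of -0.07, from Dusp1 (-0.46) and Lcn2 (-0.42) to Pdk4 (0.34) and Hsd11b1 (0.35).

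The purine pathways that adenine enters showed small differences. Aprt, which salvages adenine itself, stood at 8.24 in control fibroblasts, 7.98 with adenine and 8.17 with AICAR, a difference of -0.26. Hprt, which salvages hypoxanthine and guanine, stood at 8.74, 8.41 and 8.71 (-0.33). Adk, the adenosine kinase, stood at 8.42, 8.54 and 7.52 (0.12). Aprt and Hprt were lowest of the 3 fibroblast arrays with adenine, by less than 1.5-fold. Of 18 salvage and breakdown genes 12 were below 0 (median -0.06, which turned to 0.01 with the filter at the 75th percentile), from the adenylate kinase Ak4 (-0.53) and the AMP deaminase Ampd2 (-0.45) to the nucleotidase Nt5c2 (0.25) and Ak1 (0.21). De novo synthesis had 15 of 19 below 0 and a median of -0.20. Its lowest members were the mitochondrial folate enzyme Mthfd1l (-0.47) and the IMP dehydrogenase Impdh1 (-0.41), and its highest Mthfd1 (0.24) and Prps2 (0.41), which makes the ribose donor of salvage and synthesis alike. No member of either list was past 1.5-fold.

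Of 32 purinergic receptors, ectonucleotidases and nucleoside transporters measured only 10 passed the filter, 5 above and 5 below 0 (median 0.00). The ATP-gated channel P2rx4 was highest at 0.30 and the transporter Slc29a3 at 0.13, and the ectoenzymes Enpp3 (-0.29) and Entpd6 (-0.16) were lowest. The 2 rodent adenine receptor genes sought were not analysed here. AMPK subunits and regulators had 14 of 22 above 0 (median 0.04), from Ppargc1b (-0.34) and Txnip (-0.32) to Ppargc1a (0.33) and the AMPK-binding Fnip2 (0.44).

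Fat cell genes in these undifferentiated cells had no common lift. Adipogenic factors had 13 of 20 below 0 (median -0.09, which turned to 0.05 with the filter at the 75th percentile), from Zfp467 (-0.56) and Nr1h3 to Ebf1 (0.45), and mature adipocyte genes 12 of 20 (median -0.17, or -0.08 with that filter), from Fabp4 (6.97 to 6.42, -0.55) to Lpl (0.40). Several of the latter, such as Adipoq and Cd36, passed the filter only through the adipocyte arrays. Acute-phase genes had 8 of 10 above 0 (median 0.28), led by Orm1 (0.68), which was under the floor at 5.11 and 5.78, and the complement protease C1ra (0.57), while Ptx3 (-0.42) stood with Lcn2 at the other end. Members of a list may move together, so the count of members above 0 is no measure of error.

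**Figure D4:**
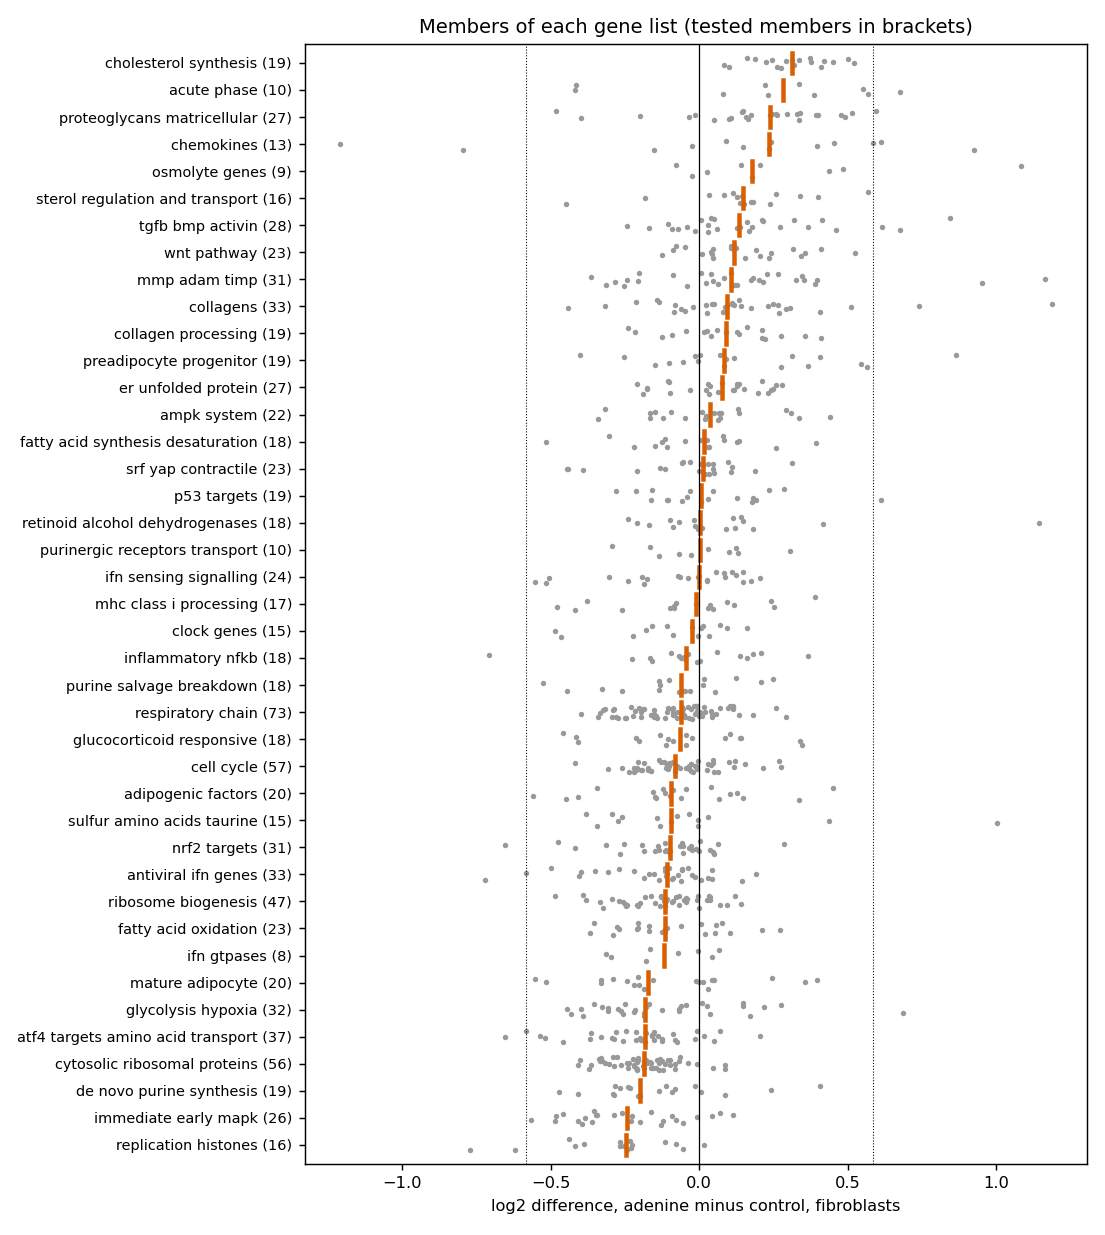
Rows are the gene lists with at least 8 members compared, fibroblast markers aside (number of members in brackets), grey points their members and orange bars their medians, on an x axis of log2 difference, adenine minus control, in fibroblasts. Dotted lines mark 1.5-fold. List medians lie between -0.25 (replication histones) and 0.31 (cholesterol synthesis), inside the dotted lines.

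A microRNA host locus on chromosome 16 gave a run of higher values from neighbouring probe sets, and was picked out after its values were seen. MicroRNAs pair through their seed, bases 2 to 8, with messenger RNAs and lower their output. The sources used here do not say whether the probe sets measure the precursor, the mature form or the host transcript. The mature sequences, from RefSeq build GRCm38.p6 with seeds in capitals, show that the 3 microRNAs have different seeds. miR-99a-5p lies at chr16:77598940-77598961 and let-7c-5p at chr16:77599672-77599693, both on the plus strand.
miR-99a-5p: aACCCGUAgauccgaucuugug
let-7c-5p: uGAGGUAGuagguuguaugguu
miR-125b-5p: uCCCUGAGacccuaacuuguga
The Mir99a probe set stood at 6.03 in control fibroblasts, 6.90 with adenine and 5.12 with AICAR, and at 6.89, 6.04 and 5.76 in adipocytes. Mirlet7c-1, 656 bases away, stood at 4.75, 6.01 and 3.44 in fibroblasts and at 5.60, 4.74 and 4.02 in adipocytes. In both, the adenine array was the highest of the fibroblast arrays and the AICAR array the lowest, with adenine differences of 0.87 and 1.26, the second at levels around the floor. The host RNA Mir99ahg, which ends 40.5 kb from Mir99a, has 4 probe sets, and they differed by 0.82, 0.75, 0.77 and -0.15. Mir125b-2, in the same locus, was dim at 1.88 and 2.13. Related microRNAs elsewhere differed less, Mir125b-1 by 0.30 and Mir99b by -0.17.

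AICAR was given to fibroblasts at the same dose and for the same time, so its array is set beside the adenine array here, but both differences subtract the same control array and are not independent. Over all 9969 genes 4736 were above 0 with AICAR and 5232 below 0 (median -0.03). At least 1.5-fold above the control were 689 of all genes, and 1206 were at least 1.5-fold below it. Of the 54 genes at least 1.5-fold higher with adenine, 31 were above 0 with AICAR (median 0.18). Past 1.5-fold above the control were 16 of the 54, and 14 were past 1.5-fold below it. Of the 32 lower genes 30 were below 0 with AICAR (median -0.88), 20 at least 1.5-fold lower and 1 higher. Leaving aside predicted genes and small RNAs, 51 higher genes remain. Higher and lower genes were chosen by their adenine and control values, so the rank of the adenine array is partly fixed by that choice. The adenine array was the highest of the 3 fibroblast arrays in 37 of the 51 higher genes. AICAR was within 1.5-fold of control in 23 of the 51, among them Col12a1 (0.06) and Mmp13 (0.19). It was at least 1.5-fold higher in 16 and at least 1.5-fold lower in 12. Most of the 9969 genes were within 1.5-fold with AICAR, since 689 were past it above and 1206 below. Among 27 lower genes, predicted genes and small RNAs again aside, the adenine array was lowest in 12. AICAR was at least 1.5-fold lower in 16 of them, among them Cd74 (-4.44), Cdsn (-3.62) and Ces2g (-2.34). Ccl5 was the 1 lower gene that was at least 1.5-fold higher with AICAR, by 0.93. For the sterol synthesis genes the median was 0.86 with AICAR and 0.31 with adenine, and Tm7sf2, the highest with adenine, was at -0.66 with AICAR. For the ribosomal protein genes the medians were 0.08 and -0.19.

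Adenine during adipocyte induction shares no array with the fibroblast comparison, though the medium, the time from exposure to harvest and the cell state all differed. Of the 54 genes higher in fibroblasts 42 (77.8%) were below 0 in adipocytes, beside 47.5% of all genes, with a median of -0.53 against 0.02 over all genes. At least 2-fold lower in adipocytes were 14 of the 54, beside 2.4% of all genes, and at least 2-fold higher were 2, Orm1 (1.36) and Plaat3 (1.19), beside 1.24%. Besides Col12a1, the 14 included the angiotensin receptor Agtr2 (0.79 in fibroblasts, -2.74 in adipocytes), Gdpd2 (0.84, -1.80), the heparan sulfate editing enzyme Sulf2 (0.76, -1.70) and Thbs2 (0.60, -1.51). Agtr2, Gdpd2, Sulf2 and Plaat3 were chosen after their values were seen. The 32 lower genes were evenly divided in adipocytes, 16 below and 16 above 0 (median -0.01), with 1 at least 2-fold lower, Ces2g (-1.89), and 2 higher, of which Cbr2 (1.11) is the protein-coding gene. Over all 9969 genes the differences in the 2 states had a Pearson correlation of -0.166, which is across genes and has no independent replicates behind it. Sterol synthesis had the same direction in both states, with a median of 0.65 and 17 of 19 members above 0 in adipocytes. Proteoglycan and matricellular genes had opposite medians, 0.24 in fibroblasts and -0.66 in adipocytes, where 25 of 27 were below 0. Preadipocyte markers were below 0 in 19 of 19 cases in adenine adipocytes (median -1.15) and mature adipocyte genes above 0 in 19 of 20. In RNA from whole cultures fewer cells of a type and less RNA per cell cannot be told apart, and the part of differentiation in these opposite signs was not tested.

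**Figure D5:**
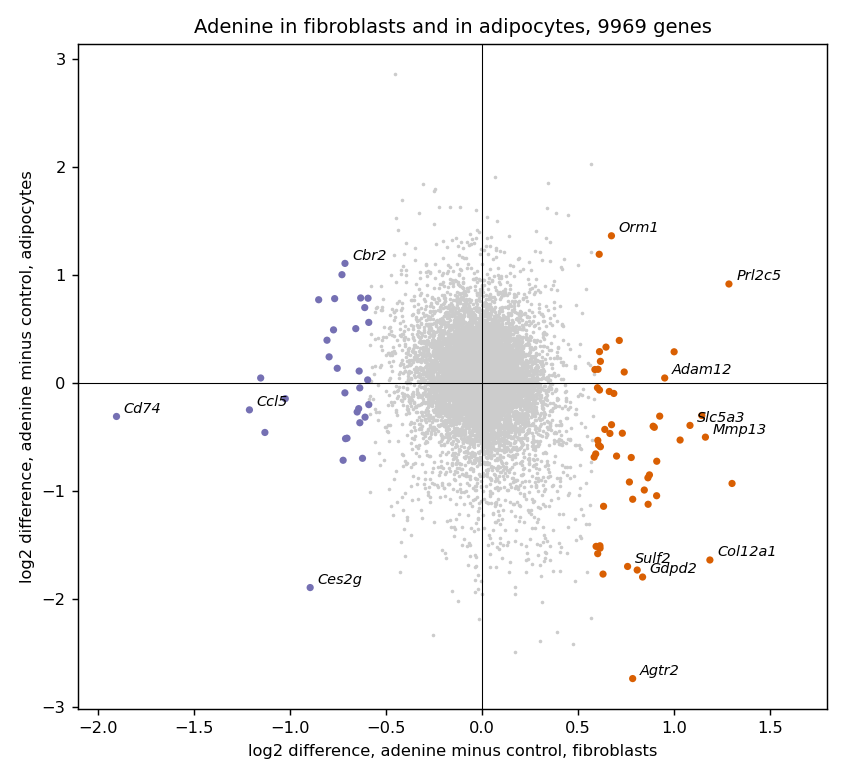
Each point is 1 of 9969 genes, with the log2 difference, adenine minus control, in fibroblasts on the x axis and in adipocytes on the y axis. Genes at least 1.5-fold higher in fibroblasts are orange and those lower purple. Of the 54 orange points 42 lie below the horizontal line at 0, and of the 32 purple points 16 do.

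Among the 9969 genes under the expression floor 10 were at least 2-fold higher with adenine and 4 lower. Beside Mmp3 and Mmp8, the largest were the granin Scg2 (5.70 in control fibroblasts, 7.09 with adenine, 5.14 with AICAR, a difference of 1.39), the flavin monooxygenase Fmo2 (5.34, 6.64 and 5.95, 1.30) and the basement membrane protein Tinag (6.39, 7.58 and 5.69, 1.19). Tinag was above the floor on the control and adenine fibroblast arrays and under it on the AICAR array and in adipocytes. Lower were the secreted carbonic anhydrase Car6 (5.73, 4.50 and 3.97, -1.23), the heparan sulfate sulfotransferase Hs3st3a1 (4.78, 3.58 and 4.36, -1.20), the NKG2D ligand Raet1d (5.36, 4.35 and 3.85, -1.01), Gstm6 (-0.97) and Nap1l2 (-0.91). No detection calls were used, and the size of differences at these levels depends on a background correction that is not given in the sources used here.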

How the data were processed

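Biotin-labelled total RNA went onto Affymetrix whole-transcript arrays, 1 for each of 6 conditions, per the labels' protocols. The authors deposited log2 expression values, and Transcriptome Analysis Console 1.0.0.234 and build mm10 are named, per the submitters' processing notes. The sources used here do not give the background correction, normalization or probe summary. Precision is limited by the number of arrays. The values were used as deposited. With 1 array a side no test could be made. One log2 value was subtracted from another, and genes past 1.5-fold and 2-fold were counted.

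Gene names came from the platform annotation, where 21789 probe sets have 1 symbol. The 1621 with several and the 12146 with none were not compared. For 999 symbols with several probe sets the one with the highest mean was taken. An Entrez ID matched RefSeq for 21698 probe sets.

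The comparison and its 49 gene lists were chosen with earlier results of these data known, and 45 of 983 listed genes compared belong to more than 1 list. Named by rule were tested genes at 2-fold, the 15 largest differences each way, the 5 largest each way under the floor, the 2 highest and 2 lowest members of a list, all measured members of the Prl2c and MHC class II lists, and Aprt, Adk and Hprt. The rule passes over predicted genes, small RNAs and receptors of smell and taste, 3 of 54 higher and 5 of 32 lower genes, and those named all the same were chosen after their values were seen. To check the code, the step was run on simulated arrays with known shifts added. Subtraction returns such shifts by design, so the run says nothing about error in these arrays. The comparison used Python 3.11.15, pandas 2.3.3, numpy 2.4.6, statsmodels 0.14.6 (loess) and matplotlib 3.10.9.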

Additional observations from a re-analysis of the deposited data

Results flagged for a closer look

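Col12a1 was higher with adenine in fibroblasts (1.19) and lower with adenine in adipocytes (-1.64), with 1 array per side in each state. The same was true of the median of the proteoglycan and matricellular genes, which was 0.24 in fibroblasts and -0.66 in adipocytes, and of the chemokine genes, 0.23 and -0.31. These differences between the states were not tested, and with single arrays they cannot be.

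Probe sets without a single gene symbol took no part in the comparison. Of 4494 such probe sets at or above the floor, 6 were higher with adenine in fibroblasts by 2-fold or more and 3 were lower by as much, with 77 and 44 past 1.5-fold. Of these 9, 1 carries several symbols and 8 carry none, and the extremes were 1.5 and -1.60.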

How the results depend on the processing

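The filter on dim genes set the counts. Without it, 18 genes were at least 2-fold higher and 9 lower, and 103 and 80 at 1.5-fold. With the filter at the 75th percentile of gene means, the counts were 4 and 2 at 2-fold and 21 and 11 at 1.5-fold. These follow from testing more or fewer genes. Without the filter the chemokine median was -0.00 (-0.0019) in place of 0.23, since its dim members were then counted, and that of osmolyte genes was 0.03 in place of 0.18. With the filter at the 75th percentile the adipogenic median turned to 0.05 and that of purine salvage to 0.01. Under the same filter the collagen median was 0.23 in place of 0.09 and that of preadipocyte markers 0.00 in place of 0.08. The medians of fatty acid synthesis, interferon sensing, MHC class I, p53, purinergic, retinoid and contractile genes lay near 0 and changed sign under at least 1 alternative. The other alternatives were quantile normalization, median centring, removal of a level-dependent curve (span 0.4), a filter on the fibroblast arrays and averaging of probe sets. Across the 7 alternatives 20 counts stayed within 1.5 times. In addition 284 medians of 41 lists and 209 values of 33 genes moved by less than the robust SD of 0.156. A filter cannot change the difference of a gene, so gene values were bound to stay the same under the filter alternatives. Averaging could change only genes with several probe sets. Medians that moved by less than 0.156 count as unmoved even where they changed sign, as that of the adipogenic factors did. The median over all genes lay between -0.02 and 0.00. Lists whose medians are under that SD, the majority, have a direction that rests on small shifts. No paired analysis was possible because each condition has 1 array, and for the same reason no array could be left out. Levels near the floor limit the folds of dim genes.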
